A study of Mus musculus with 10 samples.

Results

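Glycolysis and gluconeogenesis share most of their steps but differ at a few one-way reactions, and the 9 enzymes described here stand at those reactions and at the entry of fructose and lactate. They were chosen by name, with earlier results of these data known. They are Pck1, Fbp1 and Pcx of gluconeogenesis, Khk of fructose use, and Hk1, Hk2, Pkm, Ldha and Ldhb of glycolysis. All 9 were found among the 22053 gene identifiers of the table. RNA was sequenced from glomeruli, the capillary tufts where the kidney filters blood, in 5 libraries with the missense change p.G799R in mouse Col4a3 and 5 with wild-type Col4a3. This gene encodes a collagen IV chain found in the glomerular filter, and the comparison is mutant against wild type. The labels give no zygosity, age, sex, strain or isolation method. It is not stated that libraries of a group are different animals, so p-values describe variation among libraries only and part of it may be technical. No library with a drug treatment was analysed here.

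In gluconeogenesis, pyruvate carboxylase and phosphoenolpyruvate carboxykinase carry lactate and amino acid carbon back past pyruvate kinase, and fructose bisphosphatase reverses the step of phosphofructokinase. In the kidney these enzymes, together with ketohexokinase, are known from the proximal tubule, which makes glucose and burns mainly fatty acids and lactate. The other tubule segments and the glomerular cells rely more on glycolysis, with its enzymes hexokinase and pyruvate kinase, and on lactate dehydrogenase, which acts on its product.

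Levels are FPKM, fragments scaled for transcript length and library total, so levels of different genes can be compared. Log2 differences are taken as G799R minus wild type after log2(FPKM + 1). They were tested by limma over 13117 genes averaging 0.5 FPKM or more, and a gene was called where its p, adjusted over all these genes, was under 0.05. Of the 9 enzymes, 8 passed this filter and Hk2 did not. In FPKM as deposited 6 of the 8 fell and 0 rose, beside 19.3% of all tested genes called lower, 40.5% called higher and 59.8% called in either direction. These 6 were also the enzymes whose groups did not overlap, which held for 15.7% of all tested genes in the lower direction and 41.8% in either. With the proximal tubule markers set equal in every library, as described below, the signs of Fbp1, Pcx, Khk, Ldhb, Ldha and Pkm turned. The median log2 difference of the 8 was −2.27, that of all tested genes 0.17. In bulk tissue fewer cells of a type and less RNA per cell cannot be told apart.

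Pck1, the cytosolic phosphoenolpyruvate carboxykinase that commits carbon to gluconeogenesis, fell furthest of the 8 tested enzymes. Its level was 94.8, 48.3, 55.8, 44.6 and 42.4 FPKM in G799R libraries 1 to 5, against 306, 595, 375, 651 and 447 FPKM in wild-type libraries 1 to 5. The groups were far apart, with G799R library 1 the highest of its group and wild-type library 1 the lowest of its own. The means were 57.2 ± 21.6 FPKM in G799R and 475 ± 145 FPKM in wild type (SD, n = 5 each), 8.31-fold lower in G799R. On the log2 scale it fell by 3.04 ± 0.25 (SE), adjusted p = 3.5e-06 in limma. Pck1 has the identifier ENSMUSG00000027513 and lies on chromosome 2 at 173153048 to 173159273 in GRCm38.

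Fbp1, the fructose bisphosphatase of liver and kidney, stood at 47.5, 47.4, 42.3, 34.7 and 23.3 FPKM in the 5 G799R libraries, against 209, 320, 235, 385 and 304 FPKM in the 5 wild-type libraries. No G799R library came near a wild-type one, and library 5 was the lowest of the G799R group. The log2 difference was −2.87 ± 0.21 (SE), or 7.44-fold lower, with an adjusted p of 2.3e-06. Pcx, pyruvate carboxylase, which makes oxaloacetate in mitochondria, had 16.1, 14.4, 16.1, 11.1 and 8.24 FPKM in G799R libraries, against 73.4, 97.2, 71.7, 109 and 73.1 FPKM in wild-type libraries. Again the groups did not overlap, and libraries 4 and 5 were the lowest of the G799R group. Pcx fell by 2.61 ± 0.18 (SE) on the log2 scale, or 6.44-fold, with an adjusted p of 2.1e-06. Fbp1 (ENSMUSG00000069805) lies on chromosome 13 at 62864753 to 62888282 and Pcx (ENSMUSG00000024892) on chromosome 19 at 4510472 to 4621752.

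Khk, ketohexokinase, which phosphorylates fructose, was at 17.1, 22.4, 20.8, 16.4 and 12.5 FPKM in the G799R libraries, against 65.2, 98.6, 72.7, 117 and 77.6 FPKM in the wild-type libraries. All G799R libraries were below all wild-type libraries, with library 5 lowest in G799R and library 4 highest in wild type. Its log2 difference of −2.20 ± 0.18 (SE) had an adjusted p of 3.4e-06, and the fold was 4.83. Khk (ENSMUSG00000029162) lies on chromosome 5 at 30921431 to 30931248.

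The lactate dehydrogenase subunits moved unequally. Ldhb, the heart-type subunit known from tissues that oxidise lactate, had 79.9, 79.9, 79.2, 52.6 and 67.5 FPKM in G799R libraries, against 262, 378, 329.5, 461 and 413 FPKM in wild-type libraries. Ldha, the muscle-type subunit known for making lactate, had 133, 146, 122, 103 and 149 FPKM in G799R libraries, against 168, 187, 175, 222 and 191 FPKM in wild-type libraries. Both genes had all G799R libraries below all wild-type libraries, by a wide gap for Ldhb and a narrow one for Ldha. Ldhb fell by 2.33 ± 0.16 (SE) on the log2 scale (5.13-fold, adjusted p = 2.1e-06) and Ldha by 0.53 ± 0.11 (SE; 1.45-fold, adjusted p = 0.0017). Ldhb (ENSMUSG00000030246) lies on chromosome 6 at 142490249 to 142507957 and Ldha (ENSMUSG00000063229) on chromosome 7 at 46841475 to 46855627.

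Hk1 and Pkm, pyruvate kinase M, did not pass the test in FPKM as deposited. Pkm, whose splice forms are not separated in this table, had 117, 135, 113, 103 and 141 FPKM in G799R libraries, against 112, 113, 139, 119 and 154 FPKM in wild-type libraries. The groups overlapped almost fully, and the log2 difference was −0.06 ± 0.11 (SE; adjusted p = 0.64). Hk1, the hexokinase of most tissues, had 39.9, 44.7, 43.9, 41.6 and 50.5 FPKM in G799R libraries, against 34.0, 34.7, 43.2, 33.1 and 43.3 FPKM in wild-type libraries. Wild-type libraries 3 and 5 reached into the G799R range and the other wild-type libraries lay below it. The log2 difference of Hk1 was 0.23 ± 0.10 (SE), with an adjusted p of 0.0588. Hk1 was called higher without G799R library 1, wild-type library 3 or wild-type library 5 (log2 differences 0.26, 0.28 and 0.28). Hk2, the insulin-responsive hexokinase of muscle and fat, was close to the detection limit, with a lowest, median and highest level of 0.166, 0.258 and 0.623 FPKM in G799R and 0.063, 0.186 and 0.257 FPKM in wild type, and was not tested. Pkm (ENSMUSG00000032294) lies on chromosome 9 at 59656368 to 59679375, Hk1 (ENSMUSG00000037012) on chromosome 10 at 62268855 to 62379908 and Hk2 (ENSMUSG00000000628) on chromosome 6 at 82725025 to 82774454.

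**Figure D1:**
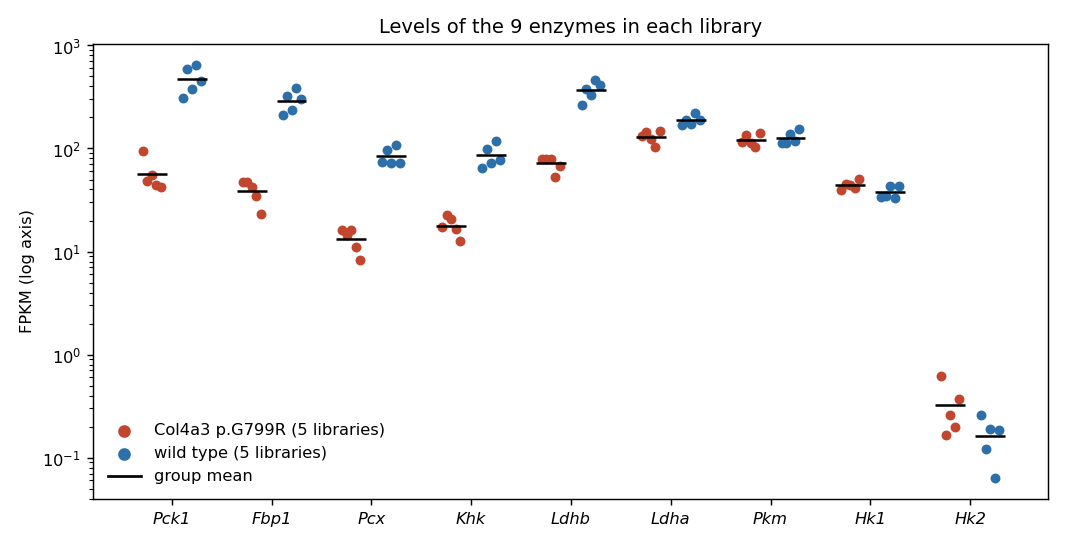
FPKM of the 9 enzymes on a log axis, with G799R libraries in red and wild-type libraries in blue; each point is 1 library and the black line is the group mean of 5. The groups stand apart for Pck1, Fbp1, Pcx, Khk and Ldhb, lie next to each other for Ldha, and overlap for Pkm, Hk1 and Hk2.

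The order of levels differed between the groups. In G799R libraries Ldha (130.5 ± 18.7 FPKM) and Pkm (122 ± 15.9 FPKM) led, with overlapping ranges, and Ldhb (71.8 ± 11.96), Pck1 (57.2 ± 21.6), Hk1 (44.1 ± 4.03) and Fbp1 (39.0 ± 10.2) followed, each overlapping its neighbour. Khk (17.9 ± 3.88) and Pcx (13.2 ± 3.44) overlapped below them, and Hk2 was last. In wild-type libraries Pck1 was the highest of the 9, followed by Ldhb (369 ± 76.4 FPKM) and Fbp1 (291 ± 70.3 FPKM), with overlapping ranges but the same order in all 5 libraries. Below them stood Ldha (189 ± 20.6), Pkm (127 ± 18.5), Khk (86.2 ± 21.2), Pcx (84.9 ± 17.3) and Hk1 (37.7 ± 5.13). Ranges did not overlap between Ldha and Pkm, between Pcx and Hk1 or between Hk1 and Hk2 in wild type, all values being FPKM as mean ± SD with n = 5.

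The promoter letters of Pck1, Khk, Ldhb and Ldha are shown because Pck1 fell furthest, Khk is the fructose enzyme, and Ldhb and Ldha are the isoforms whose balance differed. Each line is the 250 bases before the start in RefSeq's GRCm38.p6 table, read 5′ to 3′ on the strand of the gene. The windows are chr2:173152823-173153072 (plus strand) for Pck1, chr5:30921309-30921558 (plus) for Khk, chr6:142507958-142508207 (minus) for Ldhb and chr7:46845554-46845803 (plus) for the upstream of the starts listed for Ldha. Capitals mark matches, on either strand, to TTACGTCA and TGACGTCA (forms of the cyclic AMP response element), CACGTG (the E-box) and ACGTG (the core of the hypoxia response element, which lies inside CACGTG, so that a CACGTG also counts as a match of ACGTG on either strand).
Pck1: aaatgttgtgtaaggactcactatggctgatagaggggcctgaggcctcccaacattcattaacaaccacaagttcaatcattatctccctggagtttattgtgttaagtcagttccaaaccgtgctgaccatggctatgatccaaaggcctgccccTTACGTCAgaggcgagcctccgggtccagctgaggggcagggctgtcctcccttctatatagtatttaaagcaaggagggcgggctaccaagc
Khk: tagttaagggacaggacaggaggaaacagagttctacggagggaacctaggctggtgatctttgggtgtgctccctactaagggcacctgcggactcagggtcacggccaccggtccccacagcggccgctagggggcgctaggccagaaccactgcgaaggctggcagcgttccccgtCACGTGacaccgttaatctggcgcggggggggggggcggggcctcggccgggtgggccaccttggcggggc
Ldhb: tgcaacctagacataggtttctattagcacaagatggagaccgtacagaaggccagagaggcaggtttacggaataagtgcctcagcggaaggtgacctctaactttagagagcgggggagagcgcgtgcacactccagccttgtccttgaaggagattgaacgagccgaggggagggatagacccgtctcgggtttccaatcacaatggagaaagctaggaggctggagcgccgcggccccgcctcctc
Ldha: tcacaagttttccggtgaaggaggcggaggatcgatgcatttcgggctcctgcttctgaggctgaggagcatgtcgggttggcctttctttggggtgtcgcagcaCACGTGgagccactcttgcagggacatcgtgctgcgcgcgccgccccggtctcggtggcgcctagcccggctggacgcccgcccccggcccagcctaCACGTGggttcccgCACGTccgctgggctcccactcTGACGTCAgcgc

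Pck1 held TTACGTCA from base −93, counted from the start of transcription. Khk held CACGTG from −71. Ldha held CACGTG from −145 and −48, a further ACGTG on the other strand from −34 and TGACGTCA from −12, while its downstream start and the Ldhb window had no match. Among all 32851 windows of this length, TTACGTCA occurred in 0.447%, TGACGTCA in 1.55%, CACGTG in 6.02% and ACGTG in 16.6%. The Fbp1 and Hk1 windows had no match either. The Hk2 window held ACGTG. So did the downstream of the starts listed for Pkm and the upstream of those for Pcx, in Pcx also as CACGTG. The other window of Pkm and that of Pcx had no match. Windows were found for all 9 enzymes. A match describes the letters and not a bound site.

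Markers of tubule cells were lower in the same libraries. The proximal tubule list fell in 20 of 20 genes (median −2.91, range −3.63 to −1.87 on the log2 scale). Its summed level was 864 to 2495 FPKM in G799R against 7225 to 13857 FPKM in wild type, and no marker was listed at 0 in any library. In the list for later tubule segments 14 of 14 genes fell (median −2.14), with sums of 172 to 508 FPKM in G799R against 1316 to 1921 FPKM in wild type. Pck1 fell more than 16 of the 20 proximal tubule markers, Fbp1 more than 9, Pcx more than 4, and Khk and Ldhb more than 2 each. Ldha, Pkm and Hk1 stood above all 20. Podocyte markers, which define glomeruli, were abundant in both groups and rose in 10 of 10 genes (median 0.74; sums 4985 to 6728 FPKM in G799R and 2918 to 3517 FPKM in wild type). With the glomerular markers set equal these rises are removed by construction. Of the endothelial and mesangial lists 8 of 10 and 6 of 10 rose, and of the leukocyte list 5 of 9 tested rose and 1 fell. All 12 interferon response genes rose (sums 356 to 3192 FPKM in G799R and 86.6 to 178 FPKM in wild type), most in G799R libraries 3 and 4, and without those libraries the same count of 6 enzymes was called lower and 0 higher. Red cell genes had a median of −0.02, with 1 of 6 lower. The part of these cell types in the enzyme differences was not tested beyond the scalings and ratios given below.

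**Figure D2:**
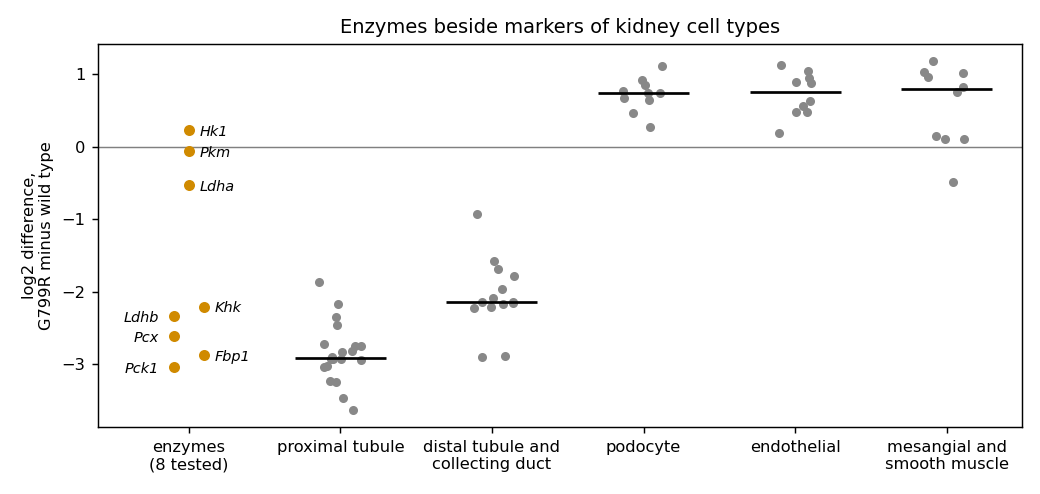
Log2 differences, G799R minus wild type on log2(FPKM + 1), of the 8 tested enzymes (orange) and of the markers of 5 kidney cell types (grey, with the median as a black line). Pck1, Fbp1, Pcx, Khk and Ldhb lie within the range of the proximal tubule markers (−3.63 to −1.87), and Ldha, Pkm and Hk1 lie above it.

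Other genes of gluconeogenesis were also lower. Of the 8 genes of the list, which holds Pck1, Fbp1 and Pcx and was tested in full, 7 fell and 1 rose, with a median of −2.15 against 0.17 for all genes. G6pc, the catalytic subunit of the phosphatase that releases free glucose, had 22.8, 16.5, 11.4, 9.16 and 6.28 FPKM in G799R libraries, against 63.2, 91.9, 72.0, 142 and 89.3 FPKM in wild-type libraries. It was 6.92-fold lower (adjusted p = 2.4e-05) with no overlap, and Slc37a4, which brings its substrate into the endoplasmic reticulum, 3.40-fold lower (adjusted p = 4.2e-06). G6pc3, the form found in most cells, fell by only 0.27 on the log2 scale (adjusted p = 0.0159). Fbp2, the muscle form of fructose bisphosphatase, fell to 1.05 FPKM in G799R, against 5.01 FPKM in wild type (adjusted p = 0.0012), although wild-type library 1 lay inside the G799R range at 1.36 FPKM. Pck2, the mitochondrial carboxykinase, was the gene that rose, at 16.7 ± 2.15 FPKM in G799R and 10.9 ± 2.21 FPKM in wild type (log2 difference 0.58 ± 0.13 SE, adjusted p = 0.0024), and its sign turned with the glomerular markers set equal (−0.05).

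Fructose and polyol genes gave 5 falls and 1 rise among 6 genes, Khk included, with a median of −1.99. Sord, which makes fructose from sorbitol, was 6.94-fold lower, Glyctk 4.45-fold and Tkfc, which phosphorylates glyceraldehyde from fructose, 2.21-fold. Akr1b3, the aldose reductase that makes sorbitol, rose 1.31-fold (adjusted p = 4.6e-04) with no overlap between groups, and was called lower (−0.28, adjusted p = 0.0436) with the glomerular markers set equal.

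The glycolysis list, which holds Hk1, Hk2, Pkm, Ldha and Ldhb, was split. Of its 25 genes 20 were tested, 12 fell and 0 rose, and the median was −0.55. Pklr, the pyruvate kinase of liver and red cells, was 7.83-fold lower at 1.38 FPKM in G799R and 10.8 FPKM in wild type (adjusted p = 5.4e-05). Ldhd, which oxidises D-lactate, was 4.12-fold lower. The shared steps fell less, with Tpi1 2.29-fold, Pgk1 2.01-fold and Gapdh 1.93-fold lower (399 FPKM in G799R and 770 FPKM in wild type for Gapdh). Aldoa, the aldolase of most tissues, was at 367 ± 27.7 FPKM in G799R and 373 ± 18.8 FPKM in wild type, with overlapping groups (adjusted p = 0.80), and Pfkl, a phosphofructokinase, had a log2 difference of −0.19 (adjusted p = 0.26). Pfkm, another phosphofructokinase, fell by 0.25 (adjusted p = 0.0359) and lost the call when G799R library 3, 4 or 5 or wild-type library 1, 2, 3 or 5 was left out (−0.23, −0.19, −0.25, −0.25, −0.27, −0.22 and −0.25). Under the scaling to proximal tubule markers 18 of the 20 were higher and 0 lower, beside 95.2% of all tested genes called higher and 0.236% lower. Gapdh, Tpi1, Pgk1 and Ldha have processed copies in the genome, so a part of their reads may be shared.

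Regulators and neighbours of these routes were also read. Of the 4 tested genes that set the allosteric activator of phosphofructokinase, 3 rose and 0 fell (median 0.37). The 3 that rose were Pfkfb3 (10.6 FPKM in G799R and 6.22 FPKM in wild type, adjusted p = 0.0126), Pfkfb4 and Tigar. With the glomerular markers set equal 0 of the 4 rose and 1 fell, beside 4.19% of all tested genes called higher and 62.5% lower. On that scale Pfkfb3 was not called (0.060, adjusted p = 0.80) and the signs of Pfkfb4, Tigar and Pfkfb2 turned. Tigar also lost its call under median-of-ratios scaling (0.22). Of 11 genes of pyruvate entry into mitochondria 9 fell and 1 rose (median −0.78). This list also holds kinases that switch pyruvate dehydrogenase off and phosphatases that switch it on, so its count gives no direction of pyruvate entry. The pyruvate carrier subunits Mpc1 and Mpc2 were 2.56-fold and 2.36-fold lower. The pyruvate dehydrogenase subunits Pdha1, Pdhb and Dlat were 1.84-fold, 1.74-fold and 1.87-fold lower. Of 16 transcription factors 5 rose and 6 fell (median −0.09). Hnf4a, a regulator of liver and proximal tubule genes, fell to 9.47 FPKM in G799R, against 71.6 FPKM in wild type (adjusted p = 3.4e-06), and Mlxipl, the carbohydrate response factor, was 4.97-fold lower. With the proximal tubule markers set equal, Hnf4a was not called (−0.011, adjusted p = 0.97). Epas1, a hypoxia-inducible factor, was 1.67-fold higher (adjusted p = 6.0e-04), a call lost with the glomerular markers set equal (0.086, adjusted p = 0.47). Of 9 hexose and lactate transporters 8 fell and 1 rose (median −1.60), with the glucose transporter Slc2a2 8.23-fold lower and the sodium-coupled carrier Slc5a2 7.51-fold lower. Both lost the call with the proximal tubule markers set equal (−0.092 and −0.065, adjusted p = 0.73 and 0.83). The counts in FPKM as deposited stand beside the shares of all tested genes given above.

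Isoform pairs were compared within each library, where the scaling of the library cancels apart from the pseudocount of 1. Of 10 pairs, also chosen with earlier results of these data known, 9 had both genes past the filter, and 8 of these are given here. Ldhb made up 37.6, 35.4, 39.3, 33.9 and 31.2% of the summed Ldhb and Ldha level in G799R libraries, against 60.9, 66.9, 65.3, 67.5 and 68.4% in wild-type libraries. Ldhb was thus the more abundant subunit in every wild-type library and the less abundant in every G799R library. The log2 ratio of Ldhb to Ldha was −0.86 ± 0.20 in G799R and 0.94 ± 0.19 in wild type (SD, n = 5 each), a difference of −1.80 with an exact two-sided permutation p of 0.0079. This is the smallest p that 5 against 5 libraries allow, and it became 0.0089 after adjustment over the 9 tested pairs. The sum of both subunits was 202 ± 27.6 FPKM in G799R and 557 ± 95.8 FPKM in wild type.

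Pck1 made up 69.6 to 84.0% of the carboxykinase sum in G799R and 95.5 to 98.7% in wild type (log2 ratio difference −3.62), and so remained the more abundant form in all 10 libraries. For G6pc and G6pc3 the share of G6pc was 29.4 to 58.0% in G799R and 77.9 to 87.4% in wild type (difference −2.50), and G799R libraries 1 and 2 were the ones that kept G6pc above G6pc3. Pklr was a small part of pyruvate kinase in both groups, at 0.241 to 2.76% in G799R and 4.96 to 10.96% in wild type (difference −2.31).

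Ratios between a gluconeogenic or fructose enzyme and a glycolytic one were lower in G799R for all 3 such pairs. The log2 ratio of Pck1 to Pkm was −1.13 ± 0.54 in G799R and 1.85 ± 0.52 in wild type, so that Pck1 was the lower of them in every G799R library and the higher in every wild-type library. The ratio of Fbp1 to Pfkl was 1.28 ± 0.62 in G799R and 3.97 ± 0.33 in wild type, with Fbp1 the higher in all 10 libraries. Khk stood below Hk1 in every G799R library (−1.28 ± 0.38) and above it in every wild-type library (1.15 ± 0.46). Each of these pairs and of the pairs above had non-overlapping groups and the same exact permutation p of 0.0079 (adjusted p = 0.0089), apart from Pfkm to Pfkl, whose log2 ratio was 0.12 ± 0.29 in G799R and 0.18 ± 0.21 in wild type (difference −0.06, exact permutation p = 0.71), with overlapping groups. The ratio of Hk2 to Hk1 was not tested. With 1 FPKM added to both genes its mean was −5.10 in G799R and −5.05 in wild type on the log2 scale. Hk2 lay under 1 FPKM in every library, so these means mostly reflect the added 1. Without it, Hk2 made up 0.740 ± 0.466% of the summed Hk2 and Hk1 level in G799R and 0.431 ± 0.204% in wild type (SD, n = 5 each), with overlapping ranges.

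**Figure D3:**
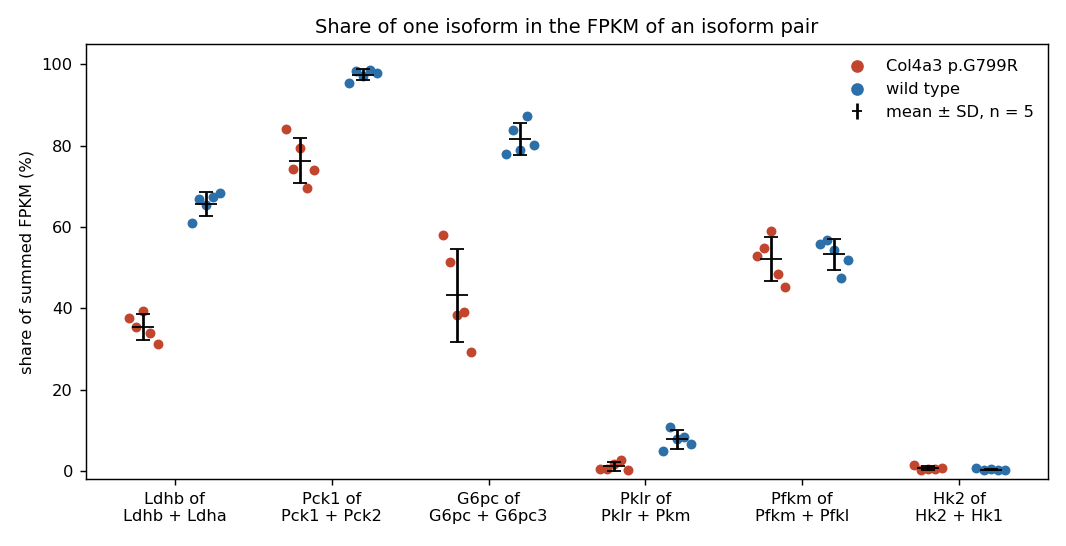
Share of the gene named first in the summed FPKM of an isoform pair, in percent, for G799R libraries (red) and wild-type libraries (blue), with mean and SD of 5 libraries in black. The Ldhb share was 31.2 to 39.3% in G799R and 60.9 to 68.4% in wild type, and the Pfkm share overlapped between groups.

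The pair ratios were then set against the balance of tubule and glomerular markers inside each group. A tubule-to-glomerulus score was taken as the mean log2(FPKM + 1) of 34 tubule markers minus that of 30 glomerular markers. It was −2.53, −2.74, −2.85, −3.54 and −3.49 in G799R libraries 1 to 5, against −0.61, 0.34, 0.04, 0.77 and 0.27 in wild-type libraries 1 to 5. G799R libraries 4 and 5 and wild-type library 1 thus had the lowest scores of their groups. Since the groups form separate clusters, only deviations from the group means were correlated, over 10 libraries, with exact permutation within groups and adjustment over 9 pairs.

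Inside the groups, 6 of the 8 ratios given here moved with the score by Pearson's r. For Pck1 to Pck2 r was 0.91 (exact permutation p = 9.7e-04, adjusted p = 0.0059) and rho 0.95 (exact permutation p = 0.0013, adjusted p = 0.0056), and for G6pc to G6pc3 r was 0.81 (exact permutation p = 0.0090, adjusted p = 0.0220) and rho 0.85 (exact permutation p = 0.0093, adjusted p = 0.0279). Both ratios passed by both measures, and without wild-type library 1 and G799R library 4, the libraries farthest from the median score, r was 0.80 and 0.93, with Pck1 to Pck2 no longer past the threshold (exact permutation, adjusted p = 0.0664).

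For Ldhb to Ldha r was 0.83 (exact permutation p = 0.0098, adjusted p = 0.0220), while rho was 0.65 (exact permutation p = 0.0761, adjusted p = 0.0979). Without the same libraries r was 0.72 and did not pass (exact permutation, adjusted p = 0.13). Fewer libraries also allow fewer permutations, so the lost call does not show whether the relation rests on them. The ratios of Pck1 to Pkm, Fbp1 to Pfkl and Khk to Hk1 had r of 0.70, 0.68 and 0.69 (exact permutation p = 0.0347, 0.0229 and 0.0369, adjusted p = 0.0474, 0.0413 and 0.0474), and rho of 0.70, 0.70 and 0.65 (exact permutation p = 0.0522, 0.0522 and 0.0761, adjusted p = 0.0940, 0.0940 and 0.0979) did not pass. Of these, Khk to Hk1 still passed without the libraries named above (r = 0.87, exact permutation, adjusted p = 0.0469), whereas Pck1 to Pkm (r = 0.79, adjusted p = 0.0844) and Fbp1 to Pfkl (r = 0.79, adjusted p = 0.0990) did not. Pfkm to Pfkl (r = 0.12 and rho = 0.05, exact permutation p = 0.75 and 0.94, adjusted p = 0.75 and 0.94) and Pklr to Pkm (r = 0.13 and rho = 0.25, exact permutation p = 0.72 and 0.54, adjusted p = 0.75 and 0.61) did not pass.

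**Figure D4:**
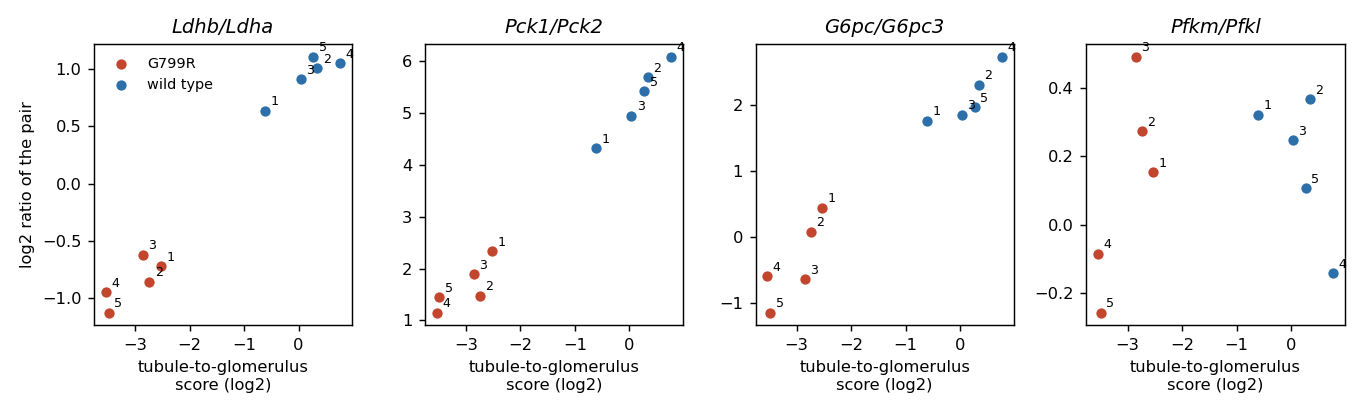
Log2 ratio of 4 isoform pairs (vertical) against the tubule-to-glomerulus score (horizontal, log2 scale) in G799R libraries (red) and wild-type libraries (blue), numbered by library. Ldhb/Ldha, Pck1/Pck2 and G6pc/G6pc3 follow the score inside the groups (r = 0.83, 0.91 and 0.81 on deviations from the group means), and Pfkm/Pfkl has r = 0.12.

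Scaling the libraries to a marker list gave the enzymes relative to those cells. With the 20 proximal tubule markers set equal in every library, the median of all genes was 2.70 and 95.2% of them were called higher and 0.236% lower (95.5% in either direction). On that scale Pck1 (log2 difference −0.12), Fbp1 (0.03) and Pcx (0.23) were not called, with adjusted p-values of 0.69, 0.91 and 0.43, and neither was Ldhb (0.59, adjusted p = 0.0533). Khk was called higher (0.66 ± 0.28 SE, adjusted p = 0.0225). The factor of a library is shared by all genes, so its error is not independent between genes. The limma p-values do not allow for this, and those near 0.05 are uncertain on this scale. Ldha (2.39), Pkm (2.85) and Hk1 (3.08) were called higher and stood near the median of all genes. Sord (0.13), G6pc (0.06) and Pklr (−0.22) were not called.

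With the 30 glomerular markers set equal instead, the median of all genes was −0.41 and 62.5% of them were called lower and 4.19% higher (66.7% in either direction). All 8 tested enzymes were called lower, with Hk1 at −0.43 (adjusted p = 0.0092), Pkm at −0.74 and Ldha at −1.21, while Pck1, Fbp1, Pcx, Ldhb and Khk stood at −3.71, −3.54, −3.26, −3.005 and −2.86. Hk1 thus changed sign with this scaling and lay close to the median of all genes. Under median-of-ratios scaling Hk1 was at 0.05 and Pkm at −0.24, neither of them called, with 25.5% of all genes called lower and 23.3% higher (48.8% in either direction).

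A further limma fit had the tubule part of the score, the mean log2(FPKM + 1) of the tubule markers alone, as a covariate. None of the 8 enzymes was called in it, at log2 differences of −0.62 for Pck1, −0.47 for Fbp1, −0.69 for Pcx, −0.47 for Khk, −0.61 for Ldhb and 0.03 for Ldha. Of all 13117 genes 0 were called, and 777 had an unadjusted p under 0.05. The tubule marker mean was 3.57 to 4.45 in G799R libraries and 6.11 to 6.87 in wild-type libraries. It did not overlap between the groups, so genotype and this mean cannot be told apart in that fit.

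**Figure D5:**
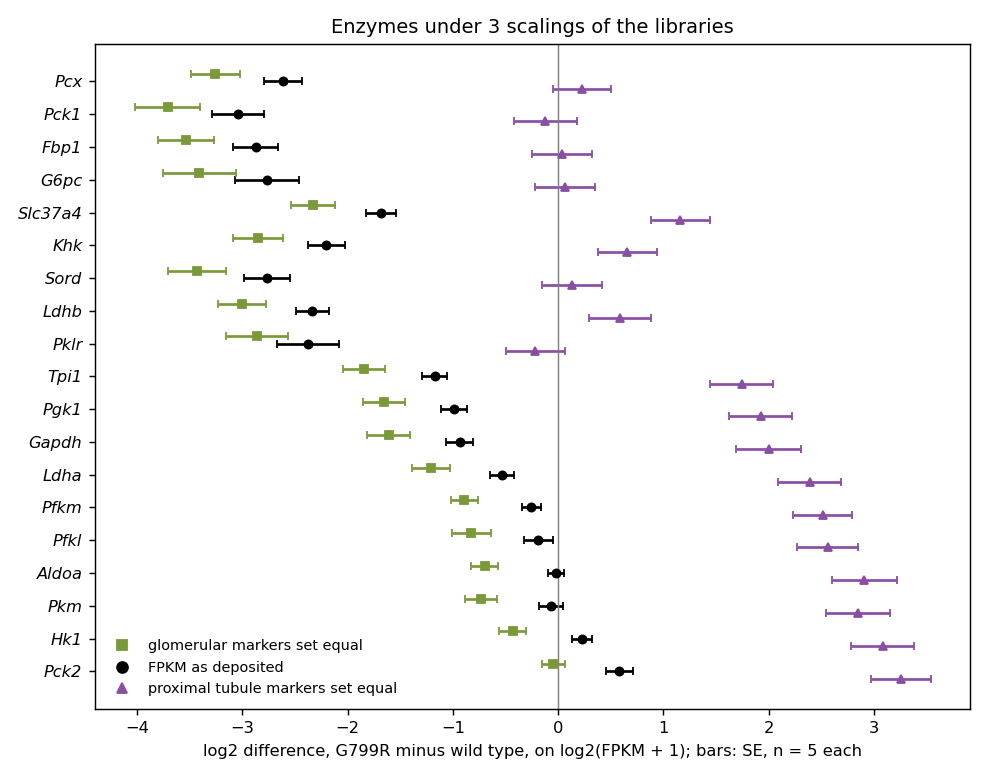
Log2 differences, G799R minus wild type on log2(FPKM + 1), of 19 enzymes with FPKM as deposited (black circles) and with libraries scaled to equal glomerular markers (green squares) or equal proximal tubule markers (purple triangles), with SE bars from 5 libraries a group. Pck1, Fbp1, Pcx, G6pc and Sord lie near 0 when proximal tubule markers are equal, and Hk1 lies between −0.43 and 3.08 over the 3 scalings.

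Genes whose deviations from the group means over 10 libraries were most like those of each enzyme are given as a description, with Pearson's r over libraries that share their depth and makeup. As the highest of 11640 candidates, these r are raised by selection, and no chance level was computed for them. Among 11640 candidates the closest to Pck1 were Olfm4 (r = 0.96), Dgat2 (0.96) and Sardh (0.95). The closest to Fbp1 included Nat8 (0.98) and the phosphate transporter Slc34a1 (0.98), a defining proximal tubule marker. Pcx was closest to the malic enzyme Me1 (0.98), the anion transporter Slc22a6 (0.97) and Kcnj15 (0.97), and Khk to Enpp6 (0.99), Nipsnap1 (0.97) and Xylb (0.97). Ldhb was closest to Dlec1, Chchd10 and Agpat3 (0.96 each). Ldha was closest to Yif1a (0.96), Arfgef1 (0.96) and Nadk2 (0.95), Pkm to Nupr1l (0.94), Thumpd3 (0.93) and Mid1ip1 (0.93), and Hk1 to Nthl1 (0.96), Smg5 (0.95) and Ckb (0.92). Among the enzymes themselves Fbp1, Pcx and Khk deviated together (r = 0.87 to 0.905), as did Pkm and Hk1 (0.86), while Hk1 and Pcx deviated oppositely (−0.66).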

How the data were processed

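RNA-seq of kidney glomeruli was available for 5 G799R and 5 wild-type libraries, as 1 table in which the authors deposited FPKM values for 22053 Ensembl identifiers. The submitters' processing notes name RSEM, StringTie 1.3.1, HISAT2, Bowtie2 2.2.8 and fastp 0.18.0, without their roles. No genome build is named there or in the labels. Columns were assigned by the names in the labels, leaving 0 columns of unknown origin. A symbol was available for 21963 identifiers, and the more abundant identifier was used for a repeated symbol. Gene positions come from GENCODE M21 (GRCm38), which may differ from the build of the authors.

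FPKM hides absolute depth. The FPKM sums were 320720 to 340875, and the steps of low values gave relative depths between 0.860 and 1.19 times that of wild-type library 1, an estimate. Analysis used log2(FPKM + 1), which understates changes of low genes, while folds are ratios of mean FPKM. Limma-trend (limma 3.58.1 in R 4.3.3, two-sided, Benjamini-Hochberg adjustment) was run on all 13117 genes averaging 0.5 FPKM or more, with a threshold of 0.05, and its code was tested on simulated data. Ratios and correlations were tested by exact permutation. The enzymes, lists, markers and pairs were chosen with earlier results of these data known. Named were the 9 enzymes, the genes of pairs, up to 6 genes per list by smallest p, and for each enzyme the 3 genes most like it of mean at least 1 FPKM, without predicted models or genes of mouse chromosome 18. Some of these genes and 1 pair are not reported here, and p-values of pairs are adjusted over all 9 tested. Alternatives were pseudocounts of 0.1 and 0.5, no filter or one of 2 FPKM, other scalings, other limma settings, a replicate block, a covariate for tubule RNA, and leaving out libraries.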

Additional observations from a re-analysis of the deposited data

Results flagged for a closer look

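In 10 of 116 groups of 5 libraries, 1 library stood apart from the other 4 by Dixon's test at the 95% level, where chance flags about 1 in 20. Among the enzymes, Pck1 was 94.8 FPKM in G799R library 1, while the other G799R libraries had 42.4 to 55.8 FPKM. The log2 ratio of Hk2 to Hk1, with 1 FPKM added to both genes, was −4.66 in the same library, where Hk2 made up 1.54% of their summed FPKM. In the G799R group, Slc37a4 (12.8 FPKM) and Tkfc (17.5 FPKM) were lowest in library 5, and Glyctk was highest in library 2 (4.13 FPKM). In the wild-type group, Fbp2 (1.36 FPKM) and Slc5a1 (4.31 FPKM) were lowest in library 1 and Pfkfb3 was highest there (8.59 FPKM), while Tigar (2.40 FPKM) and Mlxipl (33.5 FPKM) were highest in library 4. Wild-type library 1 had the lowest and wild-type library 4 the highest tubule-to-glomerulus score of their group. G799R library 1 had the highest score of its group. The part of these scores in the outlying values was not tested.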

How the results depend on the processing

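Across all genes, 3057 were called higher under median-of-ratios scaling, 550 higher and 8194 lower with glomerular markers set equal, 12492 higher and 31 lower with proximal tubule markers set equal, against 5308 higher and 2537 lower as deposited. With the tubule score as a covariate 0 were called higher or lower (777 at an unadjusted p under 0.05), as in each list, where 0 of the 8 enzymes, 0 glycolysis, 0 gluconeogenesis and 1 fructose gene had an unadjusted p under 0.05.

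Glomerular scaling gave 0 higher calls in the gluconeogenesis and fructose lists, beside 4.19% of all tested genes. The log2 differences were −0.43 for Hk1, −0.74 for Pkm, −0.28 for Akr1b3, −0.10 for Pfkfb4, −0.12 for Tigar, −0.51 for Pfkfb2 and −0.047 for Pck2. Pfkfb2 was −0.073 under median-of-ratios scaling. Proximal tubule scaling called 4 enzymes, 18 glycolysis, 4 gluconeogenesis and 4 fructose genes higher and 0 lower in each, beside 95.2% of all tested genes called higher. The values were −0.12 for Pck1, 0.034 for Fbp1, 0.23 for Pcx, 0.66 for Khk, 3.08 for Hk1, 2.85 for Pkm, 2.39 for Ldha and 0.59 for Ldhb. Signs also turned for G6pc (0.065), Sord (0.13), Slc2a5 (0.18), Slc16a1 (0.22), Fbp2 (0.53), Mlxipl (0.54), Slc5a1 (0.55), Glyctk (0.57), Ldhd (0.92), Ppargc1a (0.97), Slc37a4 (1.16), Slc16a7 (1.25), Pdp2 (1.32), Eno1 (1.34), Mpc1 (1.59), Mpc2 (1.67), Tpi1 (1.74), Tkfc (1.75), Pgk1 (1.92), Dlat (1.94), Gapdh (2.002), Pdha1 (2.05), Pdhb (2.09), G6pc3 (2.50), Pfkm (2.51), Pfkl (2.56) and Aldoa (2.91). With the covariate the values were −0.62 for Pck1, −0.47 for Fbp1, −0.69 for Pcx, −0.47 for Khk, −0.61 for Ldhb, 0.094 for Pkm, 0.032 for Ldha, 0.27 for Ldhd, 0.69 for G6pc, 0.40 for Fbp2, 0.055 for Glyctk, −0.28 for Epas1, 0.036 for Slc16a7, −0.17 for Pck2, 0.31 for G6pc3 and 0.14 for Pfkm. These scalings differ by construction in the cells they hold constant; no other cause was tested.

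With no filter 1 glycolysis gene was called higher, and with a pseudocount of 0.1 Hk2 differed by 0.64. Without G799R libraries 3 and 4 Pkm was 0.046. Libraries with the same replicate number did not deviate together (r −0.08 to 0.05). The labels state no pairing, and this check cannot exclude one. With the replicate block 1 enzyme (Hk1, 0.23, adjusted p = 0.0281) and 2 glycolysis genes were called higher. The pair differences of −1.80 (Ldhb/Ldha), −3.62 (Pck1/Pck2), −2.31 (Pklr/Pkm), −2.50 (G6pc/G6pc3), −2.98 (Pck1/Pkm), −2.69 (Fbp1/Pfkl) and −2.43 (Khk/Hk1) then had an adjusted p of 0.0703, since exact sign changes over 5 pairs allow no p below 0.0625. Without wild-type library 1 and G799R library 4, the relation with the score no longer passed for Ldhb/Ldha (r = 0.72), Pck1/Pck2 (0.80), Pck1/Pkm (0.79) and Fbp1/Pfkl (0.79).

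Leaving out 1 library at a time, 0 to 1 enzymes were called higher and 6 lower, and 0 to 2 glycolysis genes higher. Hk1 ranged over 0.18 to 0.28, Pkm over −0.12 to 0.0064, Aldoa over −0.064 to 0.0019 and the Pfkm/Pfkl difference over −0.16 to 0.028. Pck1, Fbp1, Pcx, Khk, Ldhb and Ldha were called lower in each of these fits. The unknown depth and the level of Hk2 near 0 limit what can be said of that gene.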

Other observations

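Eno1, the enolase of most tissues, has a near-identical copy in the table, and the pair was chosen after its values were seen. Eno1 stood at 26.7 to 45.7 FPKM in G799R libraries, against 117, 149, 60.2, 76.4 and 154 FPKM in wild-type libraries 1 to 5. The copy listed as Eno1b was at 67.8 to 108 FPKM in G799R libraries, against 69.7, 91.2, 154, 197 and 101 FPKM in the wild-type libraries. Eno1 therefore made up 26.8 to 31.6% of their sum in all 5 G799R libraries. In the wild-type group it made up 28.1% and 28.0% in libraries 3 and 4, but 62.6%, 62.0% and 60.4% in libraries 1, 2 and 5. No library fell between 31.6% and 60.4%. The sum of both was 122 ± 24.1 FPKM in G799R and 233 ± 34.1 FPKM in wild type (SD, n = 5 each; exact permutation p = 0.0079), or 1.91-fold lower, where Eno1 alone was 3.12-fold lower and Eno1b did not pass (exact permutation p = 0.21). The share itself did not pass either (exact permutation p = 0.11). The labels give wild-type libraries 1 to 5 as 1 group, with no strain, so whether these libraries are alike in background is not known. What divides them was not tested, and values of either gene alone are uncertain where reads are shared.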
